A study of Mus musculus with 6 samples.

Results

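The phagocyte NADPH oxidase was examined through 7 genes, Cybb, Cyba, Ncf1, Ncf4, Rac1, Rac2 and Hvcn1, which were chosen by name. They are 7 of the 36536 genes of the ALEXA-Seq table and, as Cyba has no row in the FPKM table used here, 6 of the 35237 genes of that table. The libraries came from 2 kinds of mononuclear cell of C57BL/6 mice at 6 weeks of age, with 3 libraries of each. BMDM are monocytes of the bone marrow, sorted for CD11b, high CD45 and CD115 without Ly6G. BSM are microglia of the brainstem, sorted for CD11b with low CD45, low CD115 and no Ly6G. Every library was made from cells of pooled mice, and the sample labels give replicate 1 of each group as male and replicates 2 and 3 as female. The study's main text describes the mice as male, while its RNA assessment lists the sexes as the labels do. The labels name no engineered allele and no treatment in either group.

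The phagocyte oxidase moves electrons from NADPH across a membrane onto oxygen and so makes superoxide, which neutrophils and monocytes use against ingested microbes. Its catalytic core, gp91phox, sits in the membrane with p22phox, while cytosolic subunits, among them p47phox and p40phox, join the core with a Rac GTPase when the cell is stimulated. Microglia are also known to make superoxide with this enzyme, and a proton channel carries off the charge that the electron flow leaves behind. Cybb encodes gp91phox, Cyba p22phox, Ncf1 p47phox and Ncf4 p40phox, and Hvcn1 encodes the proton channel.

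FPKM is the number of fragments of a gene divided by its exon length and by the mapped reads, so that levels of different genes can be set side by side. Differences are log2 fold changes of FPKM + 1, BMDM over BSM, from limma, and a difference was called at a Benjamini-Hochberg adjusted p under 0.05 over the 6364 genes that reached 3 FPKM in at least 1 library. The deposited values were higher in BMDM for most genes, with a median log2 fold change of 0.81 over these 6364 genes, which quantile normalization brought to 0.02. ALEXA-Seq gave a second value per gene for these libraries, linear and with no named unit, and its median was 0.84, or 0.03 after quantile normalization. The monocyte markers summed to 217 to 225 FPKM in BMDM and to at most 0.938 in BSM, and the microglial markers to 17.3 to 19.3 in BMDM and 810 to 927 in BSM. BSM replicate 1 stood apart, with 7.42% of the tested genes at 0 against 0.801% to 1.81% in the other libraries. The study's own RNA assessment gave it by far the lowest RNA integrity and the lowest RNA concentration of all libraries. Fewer cells of a type and less RNA per cell cannot be told apart in such pooled libraries.

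Of the 7 genes, 5 could be tested by FPKM and 4 of these were higher in BMDM, namely Cybb, Ncf4, Rac1 and Rac2. Cybb, Ncf4 and Rac2 reached 3 FPKM only in BMDM libraries, with at most 1.40, 1.59 and 1.04 FPKM in BSM. They were thus admitted to the test only through the group where they are high. Among all tested genes 45.3% were called higher in BMDM and 9.22% higher in BSM, so a call towards BMDM was common. Cybb stood far beyond that background, with only 0.0629% of the tested genes having a larger log2 fold change. Ncf1 was not called as deposited, and its direction depended on the scaling. Its log2 fold change was 0.22 as deposited and -1.04, called higher in BSM, with all libraries scaled to the same sum of FPKM. Hvcn1 was the member with higher deposited values in BSM. Without BSM replicate 1 the same 4 genes held their FPKM calls, where 52.7% of the 6081 genes tested were called higher in BMDM and 11.1% higher in BSM. By ALEXA-Seq all 7 genes were tested and 4 were called higher in BMDM, Cybb, Cyba, Rac1 and Rac2, where 37.1% of the tested genes were called in that direction and 10.9% in the other. Quantile normalization of the FPKM brought these shares to 21.7% and 19.3%, and that of the ALEXA-Seq values to 22.6% and 21.2%, with 5 of the 7 genes then called higher in BMDM and 1, Hvcn1, higher in BSM. By ALEXA-Seq a gene had to reach 37.4 in a library to be tested. Cybb, Ncf4 and Rac2 reached that level only in BMDM libraries, and Hvcn1 only in BSM replicate 1. The libraries of the 2 groups did not overlap for any of the 7 genes but Ncf1, while among all tested genes the BMDM libraries all lay higher for 55.2% by FPKM and 51.5% by ALEXA-Seq, and the BSM libraries all lay higher for 11.6% and 14.6%.

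**Figure D1:**
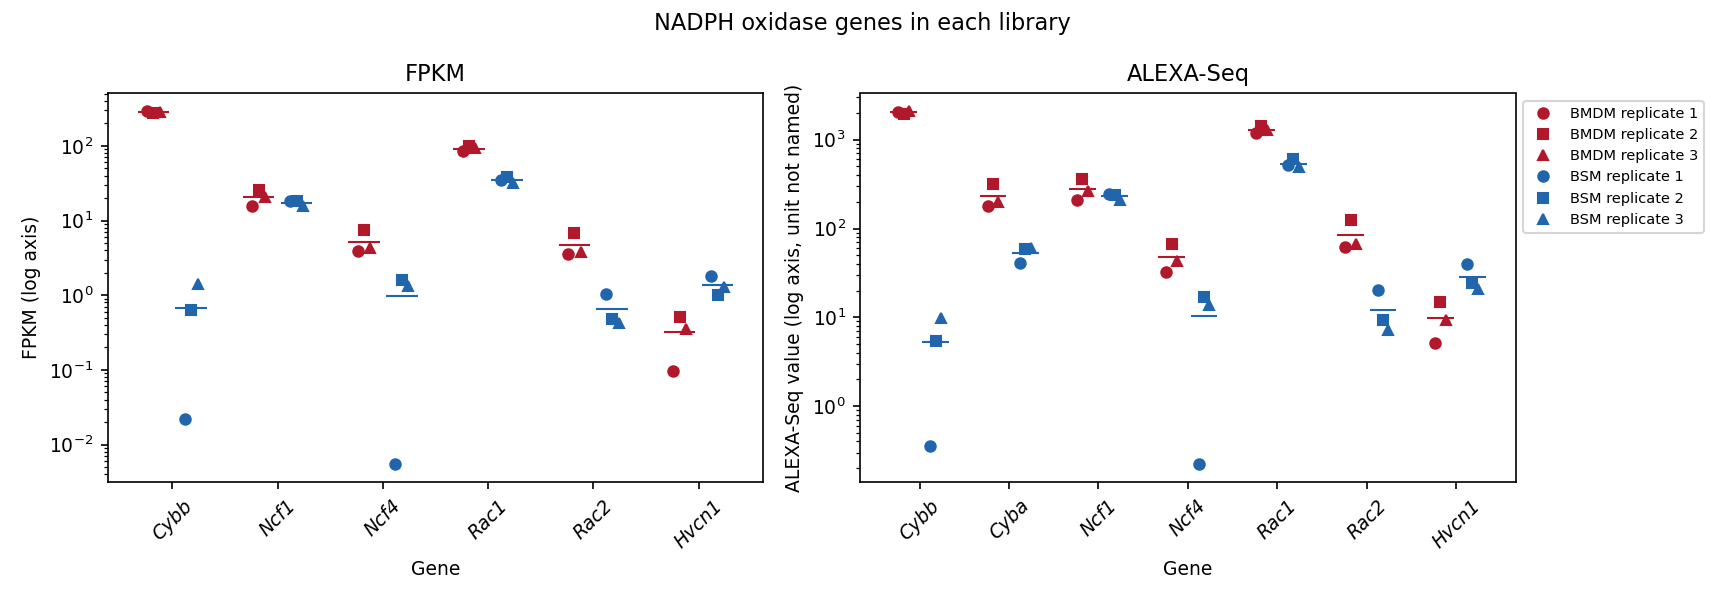
Values of the 7 oxidase genes in each of the 6 libraries, as FPKM (left, no row for Cyba) and as ALEXA-Seq values (right), on log axes. Points are libraries and short lines the group means. Cybb lies near 284 FPKM in BMDM and below 1.40 FPKM in every BSM library, the Ncf1 points of the 2 groups overlap, and the Hvcn1 points lie higher in BSM.

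Cybb had the largest difference among the 7 genes. It lies at chrX:9012378-9046450 (mm9). Its FPKM were 291, 279 and 283 in BMDM replicates 1, 2 and 3, and 0.0218, 0.632 and 1.40 in BSM replicates 1, 2 and 3. The BMDM libraries lay close together and every one of them was far above every BSM library. The group means were 284 ± 6.37 and 0.684 ± 0.689 FPKM (SD, n = 3 each), a ratio of 416, or 280 without BSM replicate 1. The log2 fold change was 7.49 (SE 0.32, limma adjusted p = 3.07e-06), which is 6.68 above the median of all tested genes, and after quantile normalization it was 6.73 (adjusted p = 2.91e-06). By ALEXA-Seq the values were 2070, 1948 and 2099 in BMDM and 0.353, 5.40 and 9.93 in BSM, with a log2 fold change of 8.81 (SE 0.72, adjusted p = 0.000161). Cybb thus ranked 33 of the 6364 tested genes by mean FPKM in BMDM and 5550 in BSM.

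The small Cybb signal of the BSM libraries can be set beside that of monocyte genes. As a share of the BMDM mean, Cybb stood at 0.00766%, 0.222% and 0.491% in BSM replicates 1, 2 and 3. Ccr2, the chemokine receptor of inflammatory monocytes, stood at 0.00845%, 0.266% and 0.239% in the same libraries. The order of the replicates was not the same for the 2 genes, but both were lowest in BSM replicate 1. Of the other 2 monocyte markers, Clec12a stood at 0%, 1.14% and 0.879% and Ly6c2 was listed at 0 in all 3 libraries. The part of these cells in the Cybb values of BSM was not tested. Within each library every other oxidase gene of the FPKM table lay at a higher share than Cybb, the nearest being Ncf4 at 0.105% in BSM replicate 1.

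**Figure D2:**
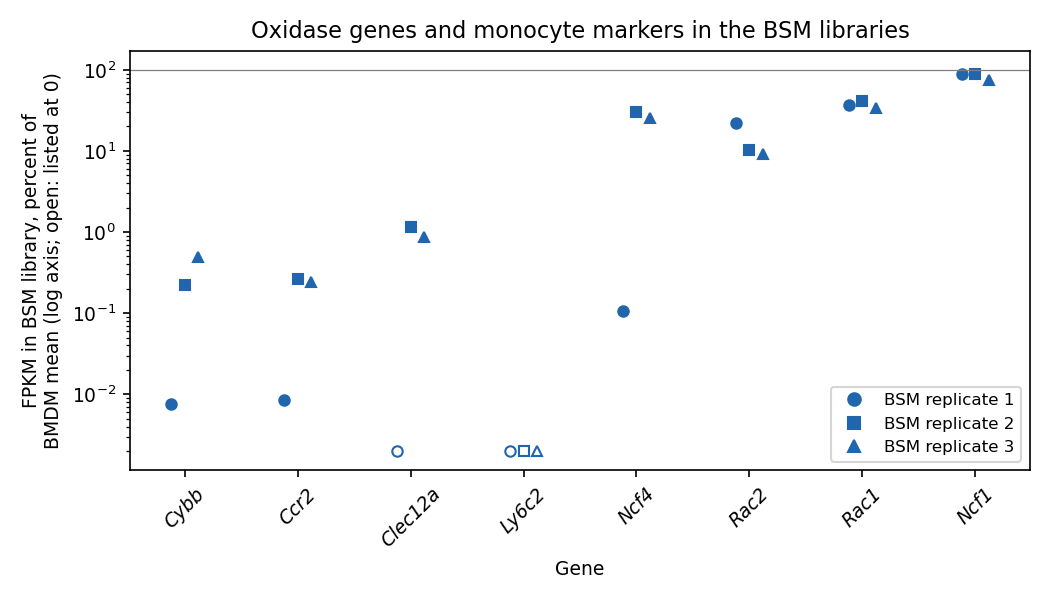
FPKM in each BSM library as a percentage of the BMDM mean, on a log axis, for 5 oxidase genes and 3 monocyte markers. Open symbols at the lower edge stand for genes listed at 0. Cybb, at 0.00766% to 0.491%, overlaps the range of Ccr2, 0.00845% to 0.266%, whereas Rac1 and Ncf1 lie between 34.1% and 88.6%.

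The Cybb promoter is known to be bound by PU.1 and interferon regulatory factors, and the 250 bases before a transcript start were therefore searched on both strands for the purine-rich core GAGGAA and for the interferon regulatory factor repeat, which is GAAA, then 2 bases of any kind, then GAAA again. RefSeq windows (GRCm38.p6, a later build than the mm9 of the files) were found for Cybb, Cyba and Ncf1, and those for Ncf4, Rac1, Rac2 and Hvcn1 were not used here. The windows of Cybb and Ncf1, the genes with the largest and the smallest difference between the groups by FPKM, are shown with each match to the repeat in capitals, read 5′ to 3′ on the strand of the gene.
Cybb, chrX:9469325-9469574, minus strand: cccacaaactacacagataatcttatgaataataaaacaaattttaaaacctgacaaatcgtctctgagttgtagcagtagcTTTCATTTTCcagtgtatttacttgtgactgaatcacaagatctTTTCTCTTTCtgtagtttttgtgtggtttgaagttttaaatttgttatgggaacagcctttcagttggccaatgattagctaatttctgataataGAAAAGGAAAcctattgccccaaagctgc
Ncf1, chr5:134229626-134229875, minus strand: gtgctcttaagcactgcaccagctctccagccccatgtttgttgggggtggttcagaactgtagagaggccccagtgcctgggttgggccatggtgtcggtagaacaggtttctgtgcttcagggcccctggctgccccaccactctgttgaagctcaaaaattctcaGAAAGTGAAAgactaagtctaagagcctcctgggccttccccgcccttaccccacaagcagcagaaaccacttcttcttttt
The Cybb window held 3 matches to the repeat, whose first bases lie 168, 124 and 29 bases before the start, the first and second on the opposite strand. The Ncf1 window held 1 match, 82 bases before the start, and the Cyba window held none, although the bases that follow the Cyba window were not found in its GENCODE transcripts. The Cybb window lies before the start of 1 transcript and inside the RefSeq span of the gene, chrX:9435252-9487766. Among all 32851 windows of this length 2.98% held the repeat. The core GAGGAA was in none of the 3 windows and in 23.3% of all windows. A match of letters is not a binding site, and these letters carry no measurement from the libraries.

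Cyba, the membrane partner that stabilises gp91phox, was measured by ALEXA-Seq alone. Its RefSeq position is chr8:122424771-122432940 (GRCm38.p6). The ALEXA-Seq values were 179, 316 and 201 in BMDM and 40.6, 58.5 and 59.8 in BSM replicates 1, 2 and 3. The groups did not overlap, and BMDM replicate 2 was the highest library. The group means were 232 ± 73.4 and 52.9 ± 10.7 (SD, n = 3 each), a ratio of 4.38, or 3.59 without BMDM replicate 2. The log2 fold change was 2.09 (SE 0.31, limma adjusted p = 0.00177), 1.25 above the median of the tested genes, and 1.36 after quantile normalization (adjusted p = 0.00530). Both membrane subunits were thus called higher in BMDM, by very different amounts.

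The 2 membrane subunits were compared within each library as the log2 ratio of Cybb to Cyba on the ALEXA-Seq scale. The ratio was 3.52, 2.62 and 3.38 in BMDM and -4.94, -3.22 and -2.48 in BSM. The ratios of the 2 groups did not overlap and differed by 6.72, with an exact two-sided permutation p = 0.1, which is the smallest that 3 libraries against 3 can give (0.15 after Benjamini-Hochberg adjustment over the 3 ratios tested). A scaling factor common to both genes of a library drops out of this ratio, except for the effect of the added 1.

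The 2 cytosolic members did not share 1 pattern. Ncf1, the organizer that is phosphorylated on activation, lies at chr5:134695923-134705495 (mm9) and had FPKM of 15.5, 26.0 and 20.7 in BMDM and 18.3, 18.4 and 15.4 in BSM. The groups overlapped, and the BMDM libraries spread more widely than the BSM libraries. The means were 20.7 ± 5.25 and 17.4 ± 1.67 FPKM (SD, n = 3 each) and the log2 fold change was 0.22 (SE 0.26, limma adjusted p = 0.488), with a 95% interval from -0.37 to 0.81. The direction depended on the scaling, as the log2 fold change was -0.53 after quantile normalization (adjusted p = 0.0875) and -1.04 with all libraries scaled to the same sum of FPKM (adjusted p = 0.00802). Relative to the median of the tested genes it was -0.59, and 70.2% of the tested genes had a higher value. By ALEXA-Seq the log2 fold change was 0.25 (adjusted p = 0.427). Ncf1 shares 408 exon bases with Gtf2ird2 on the opposite strand, and Gtf2ird2 was at 0.337 to 0.477 FPKM in BMDM and 0.850 to 3.39 in BSM, highest in BSM replicate 1. The strand setting of the counting is not given in the sources used here, so reads of the shared bases cannot be told apart.

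Ncf4, the phosphoinositide-binding subunit, was higher in BMDM by FPKM. It lies at chr15:78075231-78093010 (mm9), with FPKM of 3.93, 7.46 and 4.27 in BMDM and 0.00549, 1.59 and 1.34 in BSM. BMDM and BSM did not overlap, and BSM replicate 1 was far below the other BSM libraries. The means were 5.22 ± 1.95 and 0.980 ± 0.853 FPKM (SD, n = 3 each), a ratio of 5.33, or 3.56 without BSM replicate 1. The log2 fold change was 1.72 (SE 0.42, limma adjusted p = 0.0103), and 0.99 after quantile normalization (adjusted p = 0.0415). The call was lost with upper quartile scaling (1.22, adjusted p = 0.0818) and with the same sum of FPKM (0.96, adjusted p = 0.182). By ALEXA-Seq the values were 32.5, 67.3 and 43.1 against 0.223, 16.9 and 13.7, and the difference was not called (log2 fold change 2.77, SE 1.04, adjusted p = 0.0644). It was called after quantile normalization (1.43, adjusted p = 0.0487) and without BSM replicate 2 (3.46, adjusted p = 0.0424). Without BSM replicate 1 it was smaller but called (1.52, adjusted p = 0.00915), with 50.6% of the tested genes then called higher in BMDM and 13.6% higher in BSM.

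Of the 2 cytosolic members, Ncf4 was therefore called higher in BMDM by FPKM and Ncf1 was not. Within libraries the log2 ratio of Ncf1 to Ncf4, each as FPKM + 1, was 1.74, 1.67 and 2.04 in BMDM and 4.26, 2.90 and 2.81 in BSM. The ratios of the 2 groups did not overlap and differed by -1.51 (exact two-sided permutation p = 0.1, the smallest possible, and 0.15 adjusted over 3 ratios).

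**Figure D3:**
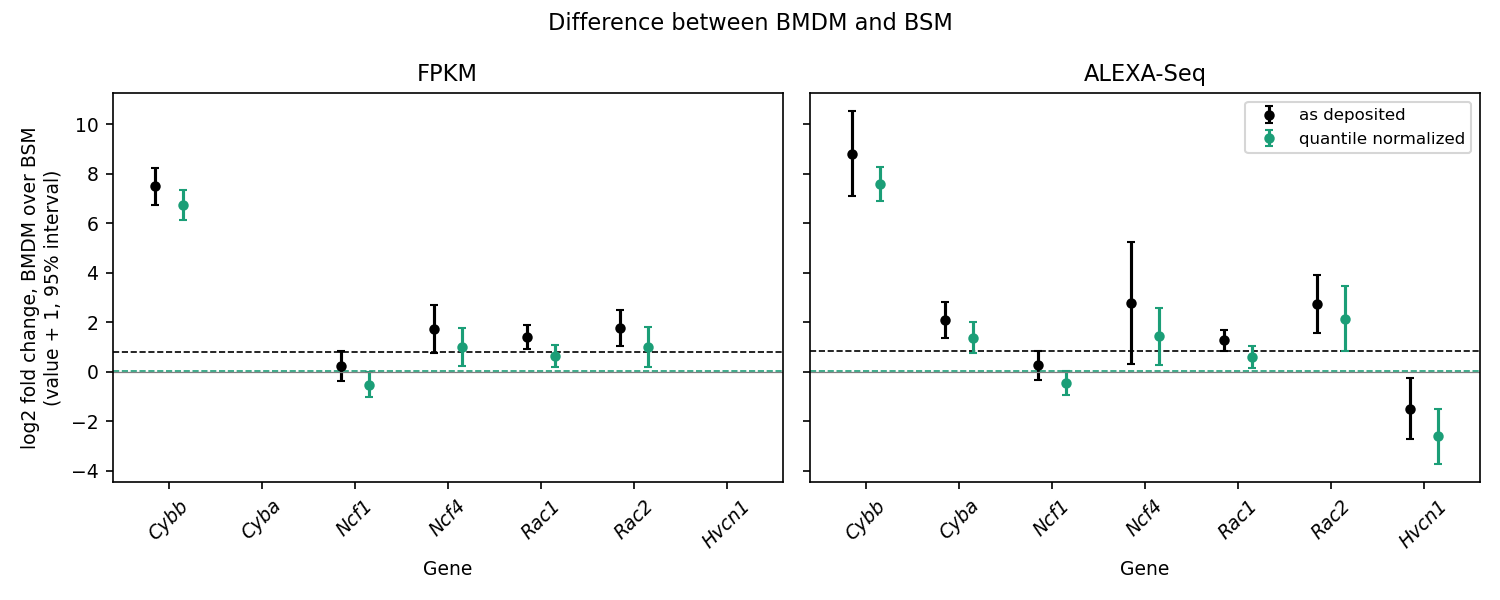
Log2 fold changes (BMDM over BSM, value + 1) of the oxidase genes by FPKM (left) and ALEXA-Seq (right), as deposited in black and after quantile normalization in green, with 95% intervals from limma. Dashed lines are the medians of all tested genes, 0.81 and 0.84 as deposited and 0.02 and 0.03 after normalization. Cybb lies far above these lines in both panels, Ncf1 lies below them, and Cyba (by FPKM) and Hvcn1 (by FPKM) have no test.

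Rac1 and Rac2 encode the GTPases that complete the active enzyme, Rac1 in most cell types and Rac2 mainly in blood cells. Because the genes are close paralogs, the coding sequences of 579 bases were compared (GENCODE M21), and they were identical at 77.0% of positions with no identical run longer than 29 bases. The last 60 coding bases, which encode the tail that steers the proteins to membranes, were identical at only 53.3% of positions and are shown with the 28 differing bases in capitals.
Rac1: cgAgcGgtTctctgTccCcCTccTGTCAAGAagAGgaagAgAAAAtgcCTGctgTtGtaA
Rac2: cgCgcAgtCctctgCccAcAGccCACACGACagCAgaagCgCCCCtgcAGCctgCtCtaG
The 2 genes lie apart, Rac1 at chr5:144266346-144288904 and Rac2 at chr15:78391308-78403150 (mm9), and their values were therefore taken as separate measurements.

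Rac1 was the most abundant by FPKM of the 6 genes with FPKM values in BSM. Its FPKM were 84.5, 98.1 and 93.5 in BMDM and 34.3, 38.4 and 31.4 in BSM. BMDM and BSM did not overlap and each was narrow. The means were 92.0 ± 6.91 and 34.7 ± 3.55 FPKM (SD, n = 3 each), a ratio of 2.65, and the log2 fold change was 1.38 (SE 0.21, limma adjusted p = 0.00114). It was 0.62 after quantile normalization (adjusted p = 0.0349) and 0.09 with all libraries scaled to the same sum of FPKM (adjusted p = 0.715), so the call for Rac1 rested on the scaling. By ALEXA-Seq it was 1.27 (adjusted p = 0.00143). Rac1 shares 2309 exon bases with Daglb on the opposite strand, which was at 1.44 to 3.33 FPKM in BMDM and 3.48 to 5.85 in BSM, far below Rac1 in every library.

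Rac2 was much lower than Rac1 in both groups. Its FPKM were 3.55, 6.81 and 3.80 in BMDM and 1.04, 0.479 and 0.429 in BSM. The groups did not overlap, and BMDM replicate 2 and BSM replicate 1 were the highest of their groups. The means were 4.72 ± 1.82 and 0.650 ± 0.341 FPKM (SD, n = 3 each), a ratio of 7.26, or 10.4 without BSM replicate 1. The log2 fold change was 1.77 (SE 0.31, limma adjusted p = 0.00249), and after quantile normalization it was 0.99 and just missed the threshold (adjusted p = 0.0531). By ALEXA-Seq it was 2.74 (SE 0.50, adjusted p = 0.00452), or 2.13 after quantile normalization (adjusted p = 0.0185). The FPKM of Rac1 was 23.8, 14.4 and 24.6 times that of Rac2 in the BMDM libraries and 32.9, 80.2 and 73.2 times in the BSM libraries. As log2 ratios of Rac2 to Rac1 with the added 1, the groups differed by 0.39 and overlapped (exact two-sided permutation p = 0.3, also 0.3 adjusted), while by ALEXA-Seq they differed by 1.47 and did not overlap (exact p = 0.1).

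Hvcn1, the voltage-gated proton channel, was the 1 member with higher deposited values in microglia. It lies at chr5:122656813-122692306 (mm9), with FPKM of 0.0968, 0.507 and 0.355 in BMDM and 1.82, 1.01 and 1.30 in BSM. No overlap was seen between groups, although all values were low. The means were 0.320 ± 0.207 and 1.38 ± 0.411 FPKM (SD, n = 3 each), and the BSM mean was 4.32 times the BMDM mean. Hvcn1 did not reach 3 FPKM and was not tested by FPKM in the main comparison. With the FPKM minimum at 1 it was admitted to the test only through the 3 BSM libraries, the group where it is high, and its log2 fold change was -0.85 (SE 0.24, limma adjusted p = 0.0227). With no minimum the same difference was not called (adjusted p = 0.0617). At the minimum of 1, 7.66% of the 9637 genes tested were called higher in BSM and 37.2% higher in BMDM. By ALEXA-Seq the values were 5.10, 15.1 and 9.39 in BMDM and 40.3, 24.6 and 20.7 in BSM, and the log2 fold change was -1.50 (SE 0.52, adjusted p = 0.0502), just short of a call. It was -2.62 after quantile normalization (adjusted p = 0.00388). Of the 6 libraries BSM replicate 1 alone lay above 37.4, the level a gene had to reach to be among those tested, so Hvcn1 entered this test through that library and was not tested without it. Hvcn1 shares 1574 exon bases with Tctn1 on the opposite strand, and Tctn1 was at 0.388 to 0.975 FPKM in BMDM and 0.474 to 1.05 in BSM, of the same order as Hvcn1.

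Set in order by mean FPKM, the BMDM levels ran from Cybb (284) through Rac1 (92.0), Ncf1 (20.7), Ncf4 (5.22) and Rac2 (4.72) to Hvcn1 (0.320). The ranges of neighbours in that order did not overlap, except those of Ncf4 and Rac2. In BSM the order was Rac1 (34.7), Ncf1 (17.4), Hvcn1 (1.38), Ncf4 (0.980), Cybb (0.684) and Rac2 (0.650). There, the ranges of neighbours among the last 4 overlapped. The catalytic subunit was thus the most abundant of these transcripts in BMDM and among the least abundant in BSM. Its FPKM was 18.8, 10.7 and 13.7 times that of Ncf1 in the BMDM libraries and 0.00119, 0.0344 and 0.0905 times in the BSM libraries, a ratio chosen after the values were seen and given without a test.

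BMDM replicate 2 had the highest value of its group for each of Cyba, Ncf1, Ncf4, Rac1, Rac2 and Hvcn1, and the lowest for Cybb. It also had the largest sum of FPKM, 194184 against 163199 and 173493 in BMDM replicates 1 and 3. The study lists it with the fewest sorted cells and the lowest share of mapped reads of all libraries. The 14 granulocyte markers, among them genes of granule proteins, summed to 554 FPKM in that library against 78.2 and 125 in BMDM replicates 1 and 3, and to at most 0.168 in BSM, where 8 of the 14 were at 0 in every library. Ly6g, the marker against which the cells were gated, was at 0.293 FPKM in BMDM replicate 2 and at 0 FPKM in every other library. By ALEXA-Seq Ly6g was at 5.24 in BMDM replicate 2, at 1.01 in BMDM replicate 3 and at 0 in the others. The erythroid markers summed to 38.5 FPKM in BMDM replicate 2 against 6.81 and 6.91, and the lymphocyte markers to 13.9 against 0.777 and 2.34. Without BMDM replicate 2 the ratio of the group means was 4.19 for Ncf4 and 5.65 for Rac2, and the FPKM calls of Cybb, Ncf4, Rac1 and Rac2 all held. Neuronal and astrocyte markers summed to at most 0.249 and 0.178 FPKM in any library, and those of perivascular macrophages, which express Cybb, to 0.470, 4.06 and 2.19 in BSM replicates 1, 2 and 3 and to 1.36 to 2.16 in BMDM. The oligodendrocyte markers summed to 5.58 to 8.62 FPKM in BMDM and 0.927 to 1.21 in BSM, and the endothelial markers to 1.34 to 2.83 and 1.31 to 2.07. The part of these cells, and of these differences between libraries, in the oxidase values was not tested.

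The genes around the oxidase were described from 7 lists, of which 88 genes had a row in the FPKM table and 61 were tested. Of these, 37 were called higher in BMDM, 6 higher in BSM and 18 were not called, where 45.3% and 9.22% of all tested genes were called in these directions, with a median log2 fold change of 1.27 against 0.81 over all tested genes. After quantile normalization 22 were called higher in BMDM and 11 in BSM, with a median of 0.48 against 0.02, where 21.7% and 19.3% of all tested genes were called. Some of these genes reached 3 FPKM only in BMDM or only in BSM libraries. They were thus admitted to the test only through the group where they are high. Among them were Arhgap15, Clic1 and Mpo, admitted through BMDM, and Vav2 and Prkca, admitted through BSM. The genes named for the size of their change in each list are those with the largest changes that were called in the same direction in both tables.

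Of the other oxidase genes, 2 of 12 were tested and Rap1a was called higher in BMDM, as were 45.3% of all tested genes. Rap1a, a small GTPase that copurifies with the cytochrome, had means of 38.0 ± 7.19 and 13.1 ± 4.57 FPKM, but its call was lost after quantile normalization (adjusted p = 0.130). The other catalytic homologs were at or near 0 in both groups. Nox1 reached at most 0.0326 FPKM, Nox3 0.00696, Nox4 0.00989, Duox1 0.135 and Duox2 0.00706 in any library. Rac3, the third Rac gene, reached at most 0.142 FPKM.

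Among 14 tested regulators of Rac, 7 were higher in BMDM and 2 in BSM, with a median log2 fold change of 1.08, near the shares of 45.3% and 9.22% of all tested genes. After quantile normalization 5 were called in each direction, with a median of 0.30, where 21.7% and 19.3% of all tested genes were called. Arhgap15, a Rac GTPase-activating protein, had means of 40.8 ± 10.1 and 0.625 ± 0.584 FPKM (log2 fold change 4.73, limma adjusted p = 3.38e-05). Arhgdib, a guanine nucleotide dissociation inhibitor of blood cells that binds Rac, had means of 549.8 ± 65.9 and 39.4 ± 27.9 FPKM (4.20, adjusted p = 0.00175). In the other direction stood the exchange factor Vav2 at 1.16 ± 0.474 and 5.37 ± 1.56 FPKM (-1.56, adjusted p = 0.00303), and Elmo1, a partner of the Dock exchange factors, at 5.83 ± 1.47 and 11.9 ± 0.628 FPKM (-0.94, adjusted p = 0.0138).

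Of 19 tested kinases and lipid signalling genes, 10 were higher in BMDM and 2 in BSM, and 3 and 3 after quantile normalization, all near the shares of all tested genes given above. Prkca, a protein kinase C isoform able to phosphorylate p47phox, was at 0.121 ± 0.0740 FPKM in BMDM and 8.74 ± 0.798 in BSM (log2 fold change -3.12, limma adjusted p = 3.57e-05). Another isoform, Prkcd, lay the other way, at 45.1, 61.0 and 61.1 FPKM in BMDM and 15.6, 20.4 and 18.3 in BSM, and was set beside Prkca after the values were seen. Pla2g4a, the cytosolic phospholipase A2, was also higher in BSM at 7.56 ± 1.14 and 14.4 ± 1.94 FPKM (-0.85, adjusted p = 0.0164). Higher in BMDM were Irak4 (1.98, adjusted p = 0.00463) and Mapk3 (2.04, adjusted p = 0.0151), of which Mapk3 missed the threshold after quantile normalization (adjusted p = 0.0749).

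Of 3 tested genes of charge and pH balance, Clic1 was called, at 6.20 ± 1.32 and 1.72 ± 0.943 FPKM (log2 fold change 1.46, limma adjusted p = 0.00834). After quantile normalization Clcn3, a chloride transporter, was also called, higher in BSM (-1.28, adjusted p = 0.00388), at 3.99 ± 0.365 FPKM in BMDM and 6.05 ± 1.18 in BSM. Of all tested genes 45.3% were called higher in BMDM and 9.22% higher in BSM, or 21.7% and 19.3% after quantile normalization.

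Of the genes that supply NADPH, the electron donor of the enzyme, 7 of 8 tested were called, 6 towards BMDM and 1 towards BSM, with a median log2 fold change of 1.88. Among all tested genes 45.3% and 9.22% were called in these directions, with a median of 0.81. Rpia, Tkt and Taldo1 reached 3 FPKM only in BMDM libraries, and Pgls, the call towards BSM, only in BSM replicate 1. These genes were thus admitted to the test only through the group where they are high. G6pdx, which starts the pentose phosphate pathway, was at 40.3 ± 11.4 and 3.40 ± 0.824 FPKM (log2 fold change 3.21, limma adjusted p = 7.83e-05). Idh1, the cytosolic isocitrate dehydrogenase, was at 82.8 ± 6.21 and 4.61 ± 3.97 FPKM (4.39, adjusted p = 0.00190). Both kept their calls after quantile normalization, when 4 genes of the list were higher in BMDM and 1 in BSM. The shares of all tested genes were then 21.7% and 19.3%.

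The genes that act on superoxide and peroxide had the largest median of the 7 lists, 2.74, with 9 of 10 tested genes called towards BMDM and 1 towards BSM, or 8 and 1 after quantile normalization. Of all tested genes 45.3% and 9.22% were called in these directions, or 21.7% and 19.3% after that normalization. Sod2, Prdx1 and Mpo, among the genes of this list, reached 3 FPKM only in BMDM libraries. They were thus admitted to the test only through the group where they are high. Mpo, the granule enzyme that turns peroxide into hypochlorous acid, was at 32.7, 181 and 67.1 FPKM in BMDM and at most 0.00913 in BSM (log2 fold change 6.22, limma adjusted p = 8.30e-05). It is also a granulocyte marker and was highest in BMDM replicate 2. Txn1, thioredoxin, was at 42.0 ± 10.6 and 1.82 ± 1.16 FPKM (4.00, adjusted p = 0.000109). Prdx2, a peroxide-reducing peroxiredoxin, was the 1 gene in the other direction, at 3.93 ± 1.51 and 13.4 ± 5.17 FPKM (-1.53, adjusted p = 0.00700).

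Of 5 tested factors known to bind promoters of oxidase genes, 3 were called higher in BMDM, or 1 after quantile normalization. Among all tested genes 45.3% were called in that direction, or 21.7% after quantile normalization. Cebpb was at 5.54 ± 1.88 and 0.481 ± 0.402 FPKM (log2 fold change 2.14, limma adjusted p = 0.00139) and kept its call after quantile normalization (adjusted p = 0.00278). Elf1 was at 11.7 ± 2.17 and 4.71 ± 2.66 FPKM (1.27, adjusted p = 0.0313), a call that quantile normalization removed (adjusted p = 0.400). Spi1, which encodes PU.1 and is listed in the files under its older symbol Sfpi1, was at 2.16, 5.24 and 3.15 FPKM in BMDM and 3.07, 1.65 and 1.74 in BSM. The groups overlapped and the difference was not called (log2 fold change 0.49, adjusted p = 0.238).

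**Figure D4:**
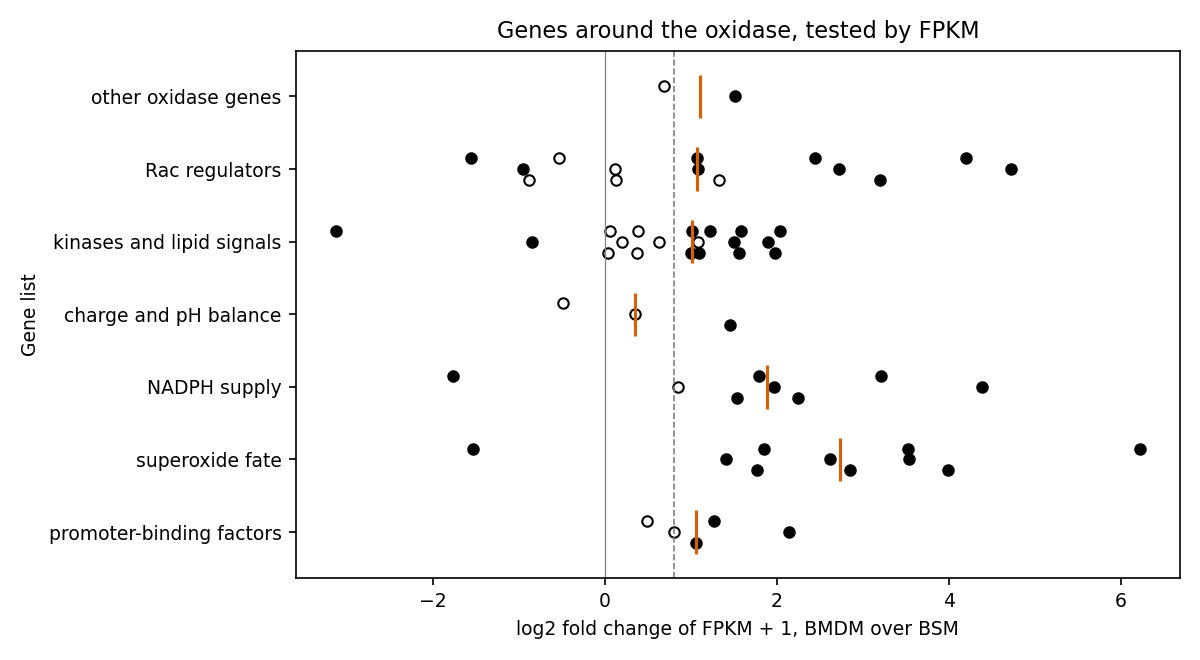
Log2 fold changes of FPKM + 1 (BMDM over BSM) for the 61 tested genes of the 7 lists around the oxidase. Filled points passed the limma adjusted p of 0.05, open points did not, orange bars are list medians and the dashed line is the median of all tested genes, 0.81. The list of superoxide fate has the largest median, 2.74, and every list but charge and pH balance, at 0.35, lies above the dashed line.

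The genes whose 6 values lay nearest to those of Cybb, by Euclidean distance on log2(FPKM + 1), were Ifi203 (distance 1.19), Chi3l3 (1.27), Ccr2 (1.77), Ahnak (2.14) and Gsr (2.27). They were sought among genes called the same way in both tables, over 6 libraries. Ccr2 was at 166, 136 and 158 FPKM in BMDM and 0.0129, 0.408 and 0.366 in BSM. Gsr, glutathione reductase, was at 184, 190 and 166 FPKM in BMDM and 1.33, 2.95 and 3.41 in BSM. The genes nearest to Rac2 were Gpd2 (0.49), Ggh (0.53), Nt5c (0.60), Tesk2 (0.61) and Mcm3 (0.62), all with BMDM means of 4.38 to 4.99 FPKM and BSM means of 0.590 to 0.942.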

How the data were processed

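RNA-Seq of 3 BMDM and 3 BSM libraries was analysed. RNA was amplified with the Ovation method and sequenced as paired-end reads. Per the submitters' processing notes, mm9, CASAVA 1.7.0, TopHat 1.3.1, Bowtie 0.12.7 and Cufflinks 1.0.3 were used, and the authors deposited FPKM from Cufflinks. The authors also deposited a linear ALEXA-Seq signal per gene, with no unit named. Neither table holds read counts, so the number of reads behind each value is not given, and 3 libraries per group limit the precision. The study lists the mapped reads of each library. Starts in the FPKM table were taken as counted from 0, as 7540 genes then had the span of GENCODE M21 against 266 otherwise.

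log2(FPKM + 1) was compared with limma 3.58.1 in R 4.3.3 (moderation with a trend) for genes with at least 3 FPKM in 1 or more libraries. The ALEXA-Seq signal went through the same test, for its 6364 highest genes. P-values were adjusted by Benjamini-Hochberg. Within-library ratios were compared by an exact permutation test. This fit was first tested on simulated data with known changes. Cyba has no row in the FPKM table used here, so its ratio to Cybb used ALEXA-Seq values alone. The promoter windows came from RefSeq, and no protein sequences were used. The series' design text gives the pooled sets of cells as independent of each other.

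The 7 genes, the lists around them and the marker lists were chosen with earlier results of these data known. The genes named are the 7 members, Spi1, up to 2 genes per list and direction with the largest change called in both tables, and the 5 genes nearest to Cybb and to Rac2. Prkcd, Clcn3, Rac3 and the Nox and Duox genes, the genes that overlap members, and the markers singled out were named outside this rule, after their values were seen. So were Rpia, Tkt, Taldo1, Pgls, Sod2 and Prdx1. Some genes and 1 list are not reported here. As alternatives, each library was left out in turn, the FPKM minimum was set to 1 or dropped, the pseudocount to 0.1, libraries were scaled by upper quartile, quantiles or the same sum, weighted by quality or blocked by number, and the trend was omitted.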

Additional observations from a re-analysis of the deposited data

How the results depend on the processing

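The call of Cybb held under every alternative run, with log2 fold changes from 6.68 (same sum of FPKM) to 9.12 (pseudocount 0.1) by FPKM. Scaling changed other members. Ncf1 turned to -0.60 (upper quartile), -0.53 (quantile) and -1.04 (same sum) by FPKM and to -0.48 (upper quartile) and -0.47 (quantile) by ALEXA-Seq. With the same sum, 2 members were called higher in BMDM and 1 in BSM, and the shares of all tested genes were not computed for this scaling. With an FPKM minimum of 1, 1 member was called higher in BSM, as were 7.66% of all genes then tested. By ALEXA-Seq 1 member was called higher in BSM with upper quartile scaling, with quantile normalization and without BMDM replicate 2. The share of all tested genes called higher in BSM was 21.2% with quantile normalization and was not computed for the other 2 settings. The list genes called higher in BMDM numbered 22, 22 and 16 with upper quartile, quantile and same-sum scaling, and those higher in BSM 10, 11 and 13. Of all tested genes 21.7% and 19.3% were called in these directions with quantile normalization of the FPKM. These shares were not computed for upper quartile and same-sum scaling. The difference in the ratio of Ncf1 to Ncf4 was -2.78 with a pseudocount of 0.1 and -2.52 by ALEXA-Seq, and that of Rac2 to Rac1 was 1.31 and 1.47. Leaving out 1 library at a time gave 4 members higher in BMDM each time by FPKM and 4 to 5 by ALEXA-Seq, with 0 to 1 higher in BSM, and 32 to 41 list genes higher in BMDM and 4 to 8 in BSM. The ratios then ranged from 6.02 to 7.25, from -1.76 to -1.04 and from 0.18 to 0.55. Among these fits the shares of all tested genes were computed only for those without BSM replicate 1, 52.7% and 11.1% by FPKM. The counts are therefore not read as results about these genes. Apart from scaling, where the same values are rescaled, the cause was not tested.

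Same-numbered libraries correlated at -0.02 to 0.13 in their deviations and 2 of 6 correlated best with their own number, so the numbers were not taken as pairs. With the replicate number as a block Cybb stayed at 7.49 (adjusted p = 0.000102), and Ncf4 by ALEXA-Seq, at 2.77, passed the threshold (adjusted p = 0.0417). The low FPKM of Hvcn1 and of Cybb in BSM limit how well their ratios are known.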
